A study of Mus musculus with 6 samples.

Results

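Rtn4 encodes Nogo, and the values described here are those of its exon bins, the exons or parts of exons over which reads were counted. The members were all rows named Rtn4 (Entrez 68585) in the 2 deposited tables of exon usage, 8 of the 958 listed bins in the table for the Ptbp1 knockdown and 1 of the 249 in the table for the Pnky knockdown. Each table lists only bins whose relative usage differed from control at an adjusted p under 0.01 in the authors' DEXSeq test, so the members were chosen by measured values, the adjusted p of each knockdown against control. Their values against control are therefore given as a description with no test. At that threshold 0.598% of 160290 tested bins were called for shPtbp1 (0.322% with higher and 0.268% with lower usage) and 0.155% of 160603 for shPnky (0.0809% lower). Of the 8 Rtn4 bins for shPtbp1, 2 had higher and 6 lower usage, and the 1 for shPnky had lower usage.

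The samples were 6 poly(A)-selected, strand-specific RNA libraries from cultured cells of the ventricular-subventricular zone, the neural stem cell niche of the mouse forebrain. All groups came from C57/B6 mice at postnatal day 5 to 7 and were grown in a self-renewal medium with serum, N2 supplement, pituitary extract, EGF and FGF. They carried the same kind of hairpin vector with a GFP or mCherry marker, by which the cells were sorted. The 2 shCtrl libraries had a hairpin against luciferase, the 2 shPnky libraries one against the long noncoding RNA Pnky, and the 2 shPtbp1 libraries one against Ptbp1, whose protein binds pyrimidine-rich RNA and keeps many neuronal exons out of mRNA. The labels do not say that the 2 libraries of a group came from separate animals or cultures, so their spread may be technical. The same 2 shCtrl libraries serve both knockdowns.

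Reticulons such as Nogo are membrane proteins that bend and stabilise the tubules of the endoplasmic reticulum. Rtn4 gives 3 classes of protein through alternative splicing and alternative start sites: Nogo-A, which holds a long region encoded by an exon of its own, the shorter Nogo-B, and Nogo-C. All share the C-terminal reticulon domain, and Nogo-A is best known as a myelin and neuronal protein that restrains neurite growth through the Nogo receptor.

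The tables give no coordinates, so a bin is named by the number in its row name, and the first bin of a gene, which has none, is called the unsuffixed bin. In the GENCODE vM21 annotation (GRCm38, a later build than the mm9 named in the submitters' processing notes), Rtn4 lies on chromosome 11 at chr11:29692947-29744331, plus strand, and 5 of its 10 transcript models match a RefSeq mRNA. Their exons merge into 11 pieces, which numbered from 0 end at 10, the highest Rtn4 bin number listed. In this order number 3 is the long Nogo-A exon at chr11:29706410-29708770. It is 2361 bases, coding throughout, and present in 2 of the 5 models. Its place is the same when overlapping exons are split into 12 parts in place of merging. Of the 585 genes of the shPtbp1 table with such models, 574 (98.1%) had their highest listed bin within the number of merged exons, a loose check because only called bins are listed. The highest listed bin was the last merged exon in 147 of them (25.1%). The correspondence of bin 3 to this exon is by order only and could not be checked against the authors' coordinates.

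With that exon the longest model codes for 1162 amino acids, and the model that differs from it by lacking this exon alone codes for 375. The exon adds 787 codons, 67.7% of the longest coding sequence, and its length is a multiple of 3. The exon before it, number 2 in the order, is 57 bases (19 codons) at chr11:29705535-29705591, and no bin 2 is listed in either table. The joins that tell the isoforms apart follow, with 30 bases on each side, 5′ to 3′ on the plus strand, from the GENCODE vM21 transcripts. Capitals mark bases of the long exon.
Exon 2 into the long exon: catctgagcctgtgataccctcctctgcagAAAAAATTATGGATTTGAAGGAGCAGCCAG
Long exon into shared exon 5: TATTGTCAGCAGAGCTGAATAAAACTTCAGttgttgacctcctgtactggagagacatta
Exon 2 into shared exon 5, long exon skipped: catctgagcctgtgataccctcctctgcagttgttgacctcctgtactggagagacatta
First exon into shared exon 5, the Nogo-B form: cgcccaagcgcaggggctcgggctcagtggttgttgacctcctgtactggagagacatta
Nogo-C first exon into shared exon 5: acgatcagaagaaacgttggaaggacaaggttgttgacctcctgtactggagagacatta
The right-hand bases of the last 4 lines are the same, because all 5 models continue through exons 5 to 10. Counts per bin do not show which joins were used, and reads that cross a join can count in both bins.

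The hairpins were checked first. Bin 13 of Ptbp1 counted 22334 and 19594 reads with shCtrl against 4967 and 4961 with shPtbp1. Bin 4 of Ptbp2, its neuronal paralog, counted 313 and 290 against 673 and 700 (listed log2 usage fold 0.18 in the authors' deposited table). The unsuffixed bin of Ptbp2 has more reads and the opposite sign of usage, 5760 and 5423 against 9075 and 9007 (-0.05). No bin of Pnky is listed in either table, so that hairpin could not be checked here. The listed counts summed to between 3514859 and 3920040 per library in the shPtbp1 table and between 1727096 and 2403866 in the shPnky table, sums over called bins and not library depths. Of the cell type markers, Gfap bin 2 (39928 and 34852 reads) and Vim bin 5 (206569 and 184699) were abundant in shCtrl, as known for cultured neural stem cells and astrocytes. Of the 12 neural stem cell and astrocyte markers, 4 were listed for shPtbp1 and 3 for shPnky, and they did not move together. After Ptbp1 knockdown Aldoc, an astrocyte glycolytic enzyme, went from 2380 and 2247 to 4491 and 4228 RPM (reads per 1000000 reads in the listed bins of a library) in its unsuffixed bin. Gfap bin 2 went from 10186 and 9916 to 8891 and 8465 RPM, and Egfr bin 27 from 2527 and 2526 to 2374 and 2372. The unsuffixed bin of Egfr went the other way, from 203 and 192 to 250 and 238 RPM. Prom1 bin 25 had 56 and 51 reads against 59 and 76. After Pnky knockdown Prom1 bin 2 went from 61.0 and 66.9 to 33.3 and 30.1 RPM, Gfap bin 2 from 19498 and 18953 to 18668 and 18543, and Vim bin 5 from 100874 and 100440 to 108672 and 114368. The listed log2 usage folds for shPnky had the opposite sign for Gfap bin 2 (0.05) and Vim bin 5 (-0.003). The listed bins of these markers summed to 14895 to 15309 RPM in shCtrl and 15324 to 16023 in shPtbp1, and in the shPnky table to 119460 to 120433 in shCtrl and 127374 to 132942 in shPnky. None of 12 oligodendrocyte lineage markers was listed in either table. Of 12 neuron and neuroblast markers 1 was listed, Syt1, with 12 and 12 reads in shCtrl and 26 and 30 in shPtbp1 in its unsuffixed bin. Only 0.598% of tested bins were called for shPtbp1 and 0.155% for shPnky, and which markers were tested is not known. Nothing is read from the numbers of markers listed. The part of cell composition in the Rtn4 values was not tested, since the tables list called bins only.

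The first comparison asked how the exon bins of Rtn4 change when Ptbp1 is depleted. Bin 3 held more reads after Ptbp1 knockdown, while each of the other listed bins held fewer. Bin 3 had 13002 and 12020 reads in the controls against 20284 and 21689 after the knockdown. In RPM these were 3317 and 3420 against 5590 and 6094. Both knockdown libraries were above both controls. The share of all listed bins whose libraries separate in this way was not computed, so nothing is read from it, here or below. The log2 count change was 0.69 (SE 0.037, edgeR quasi-likelihood fit over all 958 listed bins with TMM scaling). In the authors' deposited table the fitted usage of bin 3 went from 138 to 178, a usage fold of 0.37 in log2 with an adjusted p of 5.53e-111 in DEXSeq. That p ranked the bin 13 of 958 and the gene 9 of 602, and it is what chose the gene. The fitted usage values rise less steeply than counts. In shCtrl they were 101 for bin 8 and 169 for bin 10, at mean counts over 4 libraries of 4704 and 19510. By counts, the log2 ratio of bin 3 to the other listed bins rose by 1.22, so the 2 scales should not be equated.

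Bins 5 to 10, which by order are the exons shared by all 5 models with a RefSeq match, were lower. Bin 10, by order the last exon with the end of the reading frame, had 23671 and 21454 reads in the controls against 16573 and 16341 after the knockdown (log2 count change -0.51, SE 0.032, edgeR). Bin 6 went from 7663 and 6719 reads to 5142 and 5264 (log2 count change -0.52, SE 0.038, edgeR), and bin 7 from 6217 and 5574 to 4099 and 4285 (-0.55, SE 0.040). Their controls were all above their knockdown libraries. Bins 8 and 9 behaved alike, with 5741 and 5209 reads against 3846 and 4020 in bin 8, and 6343 and 5730 against 4359 and 4602 in bin 9. Their log2 count changes were -0.54 and -0.49 (edgeR).

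Bin 5, by order the exon that follows the long exon in Nogo-A, had the smallest count change of the 8 bins. Its reads were 7094 and 6336 in the controls against 5309 and 5384 after the knockdown (log2 count change -0.39, SE 0.037, edgeR). It is also the one bin besides bin 3 with a higher listed usage in the authors' deposited table (0.01 in log2). Its reads were fewer, however, and its share of the listed Rtn4 reads fell, from 9.33% and 9.33% to 8.42% and 8.33%. With bin 3 left out its share was higher, as given below. The direction for bin 5 thus depends on the bins it is set against.

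By order, the unsuffixed bin is the first exon of 3 of the 5 models, among them the longest. The other model with the long exon starts at number 1 in the order. The unsuffixed bin was the most variable. Its reads were 6332 and 4857 in the controls against 3454 and 3012 after the knockdown. The log2 count change of -0.85 (SE 0.055, edgeR) was the largest drop of the 8. Its listed dispersion, 0.00488, was the highest of the Rtn4 bins, and 9.71% of all listed bins had a higher one. It was also nearest to the authors' threshold: its adjusted p was 0.00146 (log2 fold -0.18 in the authors' deposited table), against 3.26e-10 for bin 5, the next. Bins outside the threshold were not analysed here. For bins 1, 2 and 4, by order the second start exon, the short exon and the Nogo-C exon, no values are given for this reason.

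**Figure D1:**
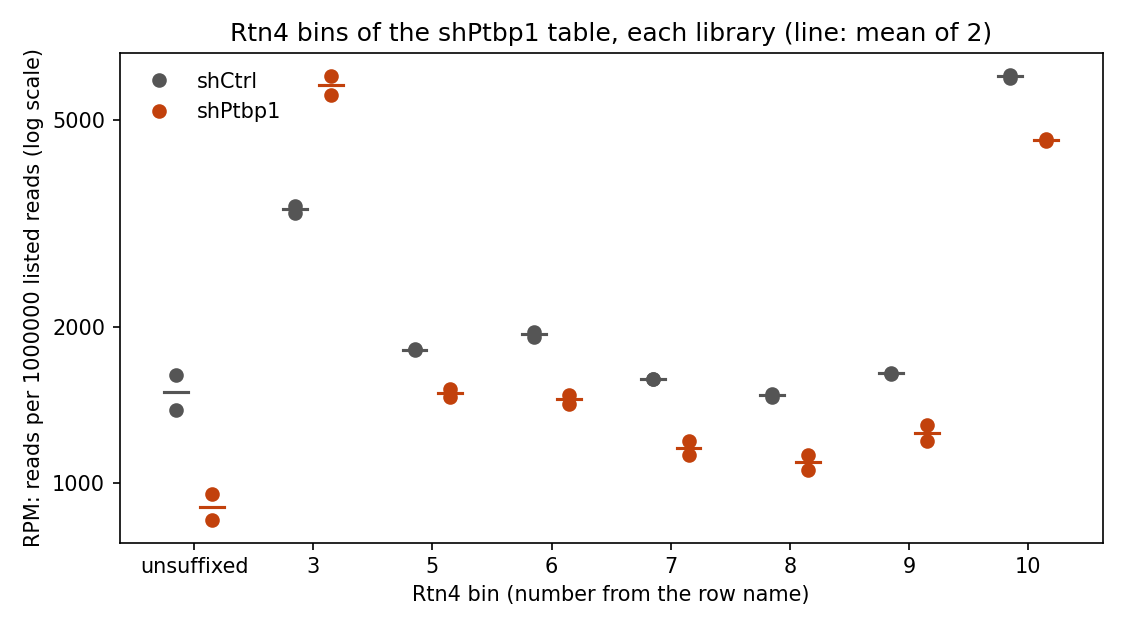
RPM, reads per 1000000 listed reads (log axis), of the 8 Rtn4 bins in the shPtbp1 table, 1 point per library and a line at the mean of 2. Bin 3 is the one bin with both shPtbp1 libraries (5590 and 6094) above both shCtrl libraries (3317 and 3420).

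**Figure D2:**
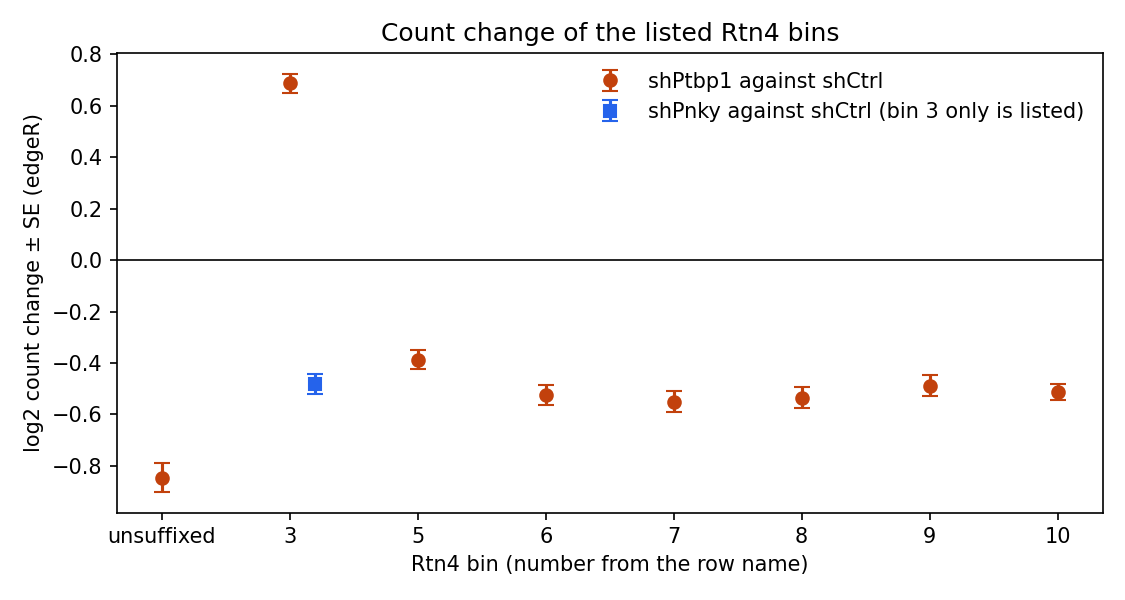
Log2 count change against shCtrl with its SE from edgeR, for the 8 Rtn4 bins of the shPtbp1 table and the 1 bin of the shPnky table. Bin 3 stands at 0.69 after Ptbp1 knockdown and at -0.48 after Pnky knockdown, and the other bins of the shPtbp1 table lie between -0.85 and -0.39.

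Summed over the 8 listed bins, Rtn4 had 76063 and 67899 reads in the controls against 63066 and 64597 after the knockdown. Without bin 3 the sums were 63061 and 55879 against 42782 and 42908 (log2 count change -0.53, SE 0.031, edgeR fit over the 160 genes with at least 2 listed bins). Bin 3 thus made up 17.1% and 17.7% of the listed Rtn4 reads in shCtrl and 32.2% and 33.6% in shPtbp1, a difference of 15.5 percentage points. The sums count reads per bin, and a read over a join can enter more than 1 bin. The count change also rests on a scaling over called bins alone, and scaling over all expressed bins could not be done. Fewer cells with Rtn4 and less Rtn4 RNA per cell cannot be told apart in such bulk libraries.

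The ratio of bin 3 to another bin of the same library does not depend on the scaling between libraries. Against bin 10, the ratio was 0.549 and 0.560 in shCtrl and 1.22 and 1.33 in shPtbp1. By order these are the longest merged pieces of the gene, 2361 and 2345 bases, although 4 of the 5 models end before the last base of the second. If the last exon is split where these models end, as in the 12 parts, bin 10 is shorter and the lengths are not alike. Bin 3 therefore had fewer reads than bin 10 in both controls and more in both knockdown libraries. Against bin 5 it was 1.83 and 1.90 in shCtrl and 3.82 and 4.03 in shPtbp1, 2.10 times higher by the means. Over the 7 denominators this factor ranged from 2.10 for bin 5 to 2.89 for the unsuffixed bin, whose own ratios spread most, at 2.05 and 2.47 in shCtrl and 5.87 and 7.20 in shPtbp1.

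**Figure D3:**
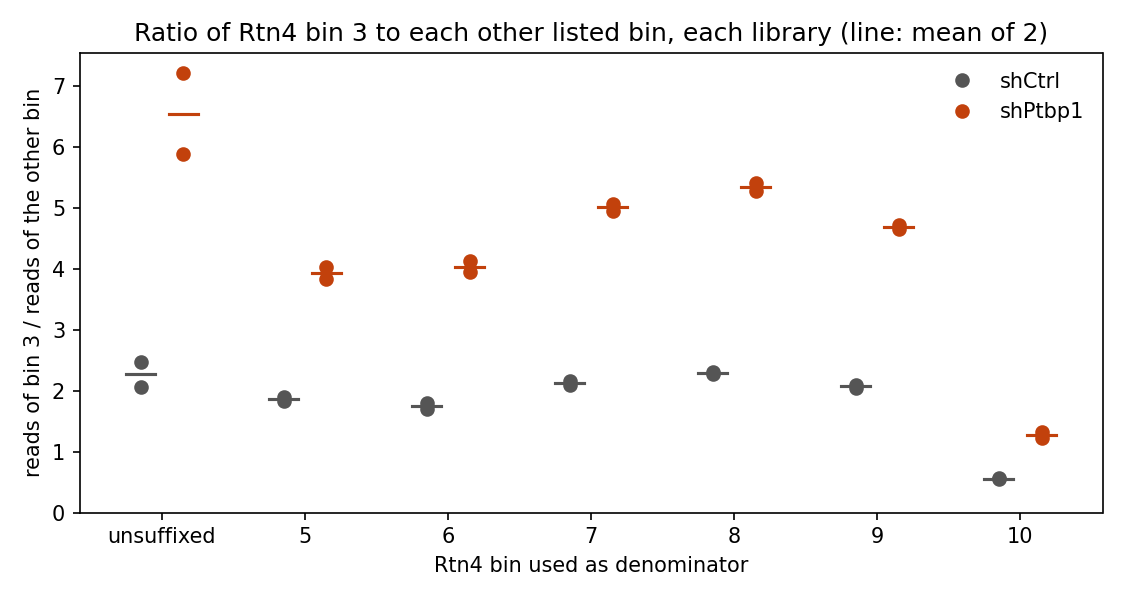
Reads of Rtn4 bin 3 divided by the reads of each other listed bin, 1 point per library and a line at the mean of 2. For every denominator both shPtbp1 libraries lie above both shCtrl libraries, for bin 5 at 3.82 and 4.03 against 1.83 and 1.90.

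With bin 3 left out, the 7 remaining bins kept nearly the same proportions among themselves. Bin 10 was 38.0% ± 0.61 (SD, n = 2) of their reads in shCtrl and 38.4% ± 0.46 (SD, n = 2) in shPtbp1. For 5 of the 7, bins 6 to 10, the libraries of the groups overlapped. Bin 5 was higher, from 11.3% ± 0.06 to 12.5% ± 0.10 (SD, n = 2), and the unsuffixed bin lower, from 10.0% and 8.69% to 8.07% and 7.02% in the single libraries. For these 2 bins the libraries did not overlap, though for the unsuffixed bin the gap between groups was smaller than the spread within either. With 2 libraries per group a lack of overlap alone says little, and its share over all listed bins was not computed.

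Measured against the rest of the shPtbp1 table, bin 3 combined many reads with a large fold. Its mean count of 16749 ranked 36 of 958, where the median bin had 946. Its absolute log2 fold of 0.37 compares with a median of 0.16, and 223 of the 945 bins with a fold (23.6%) had a larger one. It was the only bin of the 36 with at least its mean count that also had at least its fold. Only 8 of the 602 genes had more listed bins than Rtn4, and 442 had 1. The folds are of the fitted usage, which is not on the scale of counts. These values come from the contrast that chose the gene and are descriptive.

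The second comparison asked how Rtn4 changes when Pnky is depleted. Bin 3 is the only Rtn4 bin listed for shPnky, and it was lower. Against 13002 and 12020 reads in the controls, 11148 and 7453 were counted in it after the knockdown. The shPnky libraries differ in their listed totals (2403866 and 1727096), and in RPM of that table the values were 6349 and 6537 for the controls against 4638 and 4315 for shPnky. Both knockdown libraries were below both controls, and the share of listed bins whose libraries separate was not computed here either. The log2 count change was -0.48 (SE 0.038, edgeR fit over all 249 listed bins). In the authors' deposited table the usage of bin 3 went from 138 to 125, a usage fold of -0.14 in log2 with an adjusted p of 2.14e-14 in DEXSeq, rank 26 of 249. No share within the gene can be formed from 1 listed bin, and whether the rest of Rtn4 changed in these libraries was not analysed here.

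The third comparison set the knockdowns against each other for bin 3, one of the 118 bins listed in both tables. Per 1000000 reads of these 118 bins it stood at 13812 and 14154 in shCtrl, 10307 and 9674 in shPnky, and 24004 and 26074 in shPtbp1. The shPnky libraries were lowest and the shPtbp1 libraries highest. Bin 3 was higher in shPtbp1 than in shPnky by a log2 count change of 1.21 with an SE of 0.050 (quasi-likelihood test of edgeR across the 118 bins, adjusted p = 3.3e-06), in 2 of 2 libraries against 2 of 2. In this test 62.7% of the 118 bins passed at an adjusted p under 0.05 and 29.7% were higher in shPtbp1, so passing it does not set Rtn4 apart. Of the 118 bins, 6 had a larger absolute change. The control libraries are in the same fit and add to its estimate of the spread, and without shCtrl replicate 1 the adjusted p was 0.000172 (edgeR). All its bins were called against shCtrl. Bin 3 was called from these same counts in opposite directions, with higher usage for shPtbp1 and lower for shPnky. The test is therefore not independent of how Rtn4 was chosen, and its p adds no support. It compares counts and not usage, since no other Rtn4 bin is listed for shPnky.

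**Figure D4:**
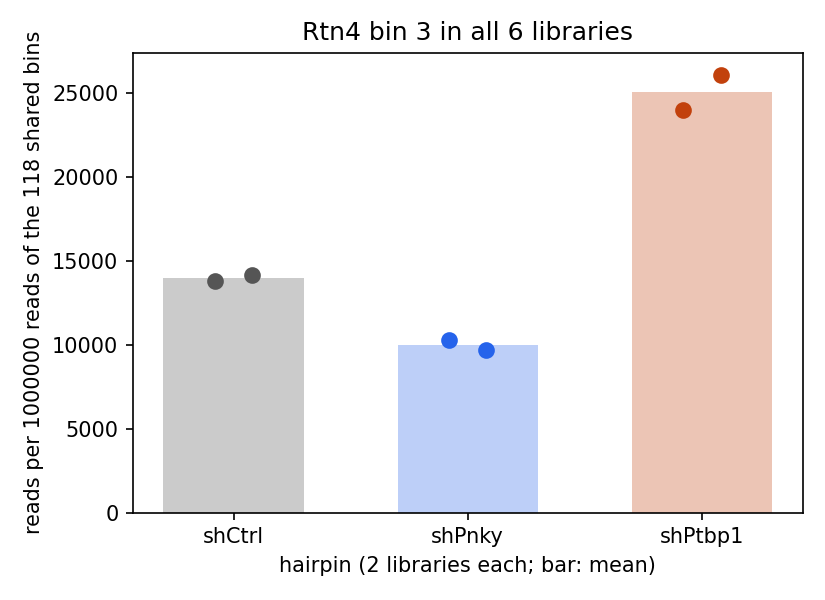
Reads of Rtn4 bin 3 per 1000000 reads of the 118 shared bins, 1 point per library and a bar at the mean of 2. The shPnky libraries lie at 10307 and 9674, below shCtrl at 13812 and 14154, and the shPtbp1 libraries at 24004 and 26074 lie above both groups.

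The shared bins most like bin 3 over the 6 libraries were sought by the distance between log2(CPM + 1) values centred on shCtrl. The nearest was bin 15 of Limk2, a kinase that phosphorylates cofilin, at a distance of 0.34. Its reads were 214 and 206 in the controls, 196 and 149 after Pnky and 319 and 319 after Ptbp1 knockdown. Bin 1 of U05342 followed at 0.38, with 211 and 197, 205 and 148, and 321 and 312 reads in the same order. Bin 9 of Ctnnd1, which encodes the cadherin-associated p120 catenin, lay at 0.39, with 264 and 234, 196 and 118, and 403 and 472 reads. Bin 3 of H2afy, the gene of the histone variant macroH2A, lay at 0.47, with 814 and 717, 691 and 439, and 985 and 1063 reads. All 4 had at most 1063 reads in a library, far fewer than Rtn4 bin 3. The measure is over 6 libraries that share their controls, and it describes likeness of counts alone.

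**Figure D5:**
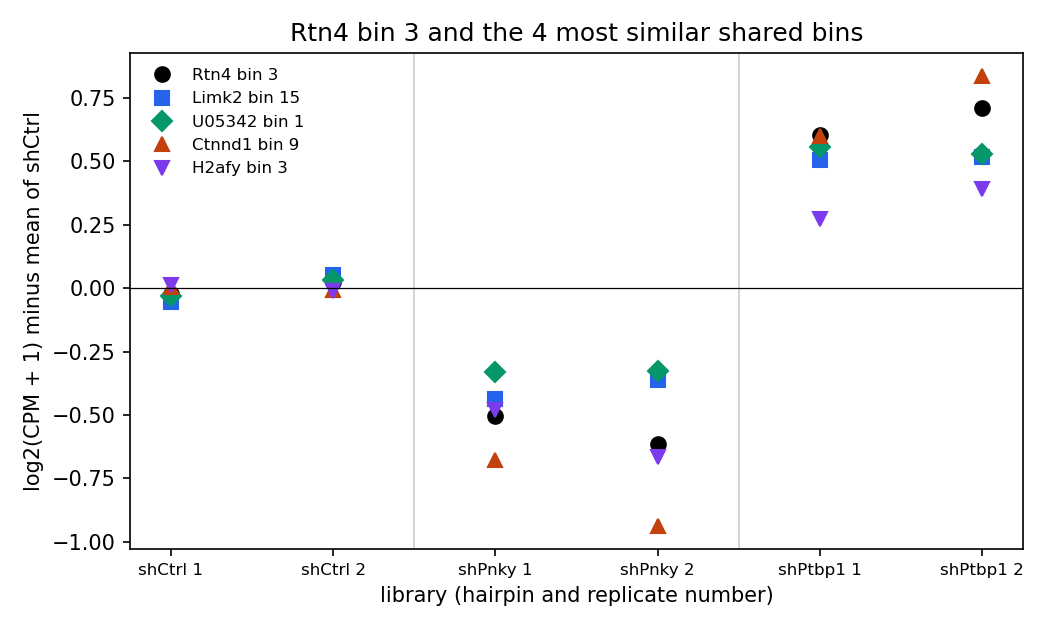
Log2(CPM + 1) of Rtn4 bin 3 and of the 4 nearest shared bins, minus the mean of the 2 shCtrl libraries, for each of the 6 libraries. Each of the 5 bins lies below 0 in both shPnky libraries and above 0 in both shPtbp1 libraries.

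The other members of the reticulon family and the proteins that work beside them were examined next. Of 24 reticulons and other shapers of the endoplasmic reticulum, 5 had a listed bin for shPtbp1 and none for shPnky. By their leading bins, those of smallest adjusted p, 3 genes were higher and 2 lower. Of all tested bins, 0.598% were called for shPtbp1 and 0.155% for shPnky, and nothing is read from these numbers of genes. Rtn1, a neuronal reticulon, had 3 listed bins: bin 6 had 351 and 288 reads in the controls against 633 and 586 after the knockdown (log2 fold 0.32 in the authors' deposited table). Its bin 8 had 7651 and 6717 against 7252 and 7322 (-0.10), and its unsuffixed bin 10347 and 9003 against 12184 and 11766 (0.01). Rtn3 had 1, bin 7, with 27 and 8 reads against 115 and 83, a listed log2 fold of 1.22 on few reads, with controls that lie far apart. No bin of Rtn2 is listed.

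The other listed genes of this group were Reep6, Spast and Tmem33. Bin 4 of Reep6, a hairpin protein of the endoplasmic reticulum, had 16 and 10 reads in the controls against 45 and 38 after the knockdown (log2 fold 0.86 in the authors' deposited table). Bin 16 of Spast, the microtubule-severing protein spastin, held 6017 and 5388 against 4581 and 4537 (-0.11). Bin 7 of Tmem33 held 12471 and 11188 against 9715 and 9744 (-0.06), and its bin 3 had a log2 fold of 0.05. How many of these genes were tested by the authors is not known from the tables, so no share of called genes over expressed genes is given.

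None of 21 genes for Nogo receptors, co-receptors, their other ligands and partners, among them Rtn4r, Lingo1 and Ngfr, had a listed bin in either table. With 0.598% and 0.155% of tested bins called, and the tables not showing which of these genes were tested, nothing is read from this count.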

How the data were processed

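The 2 deposited tables, 1 per knockdown, were used. Per the file headers, each row gives raw read counts of a bin in 4 libraries and the authors' DEXSeq p-value, adjusted p, fitted usage values, dispersion and statistic (scores of their model), a log2 fold of the fitted usage, and a listed mean. The authors deposited rows at an adjusted p under 0.01. The submitters' processing notes name mm9, TopHat2 2.0.10 and Cuffdiff 2.1.1. The release of DEXSeq, like the read counter and the bin annotation, is not given in the sources used here.

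Members and gene lists were chosen with earlier results of these data known. Bin numbers come from row names. The numbers of tested bins were recovered from p and adjusted p. Count changes were fitted with edgeR 4.0.16 (R 4.3.3, glmQLFit, TMM) over all listed bins, and the SE is the log2 change over the square root of F. The fit was tested on simulated data. DESeq2 1.42.0 was an alternative. Counts of shCtrl were identical in both tables for all 118 shared bins. No usage test between knockdowns was possible, since 1 Rtn4 bin is shared. Named genes were all Rtn4 bins, Ptbp1, Ptbp2 and Pnky, up to 6 listed genes per list and the 4 most similar shared bins. The result of 1 gene list is not reported here. Isoforms and sequences come from GENCODE vM21 (GRCm38), used for order and length only. Tables and figures were made with Python 3.11.15.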

Additional observations from a re-analysis of the deposited data

Results flagged for a closer look

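For 2 of the named bins, the change against shCtrl differed between the hairpins by the edgeR quasi-likelihood test of shPtbp1 against shPnky over the 118 shared bins, in which 62.7% of bins passed. No other named bin is among the 118, apart from those picked for likeness to Rtn4 bin 3. The 118 bins were all called against shCtrl first, and these 2 in opposite directions of usage for the hairpins. The test is therefore not independent of their choice, and its p adds no support. The log2 count change of shPtbp1 over shPnky was 1.21 for Rtn4 bin 3 (edgeR adjusted p = 3.3e-06), with -0.56 in shPnky and 0.66 in shPtbp1 against shCtrl by the same fit. Gfap bin 2 had -0.27 (edgeR adjusted p = 0.000325), with log2 changes against shCtrl of -0.08 in shPnky and -0.35 in shPtbp1. Its listed log2 usage fold was 0.05 for shPnky and -0.03 for shPtbp1, so for shPnky usage and counts differ in direction. The 4 bins picked for their likeness to Rtn4 bin 3 are left out here, since a test between the hairpins would restate how they were picked.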

How the results depend on the processing

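The direction held in all 42 alternatives that have one. Scaling by the sums of listed counts without TMM moved the log2 count change in shPtbp1 from 0.69 to 0.79 for bin 3 and from -0.53 to -0.42 for the other listed bins. It moved the median of all listed bins from 0.02 to 0.13, so relative to that median the changes were like those under TMM. Leaving out 1 library at a time gave 0.62 to 0.75 for bin 3 in shPtbp1, -0.55 to -0.51 for its other bins, -0.54 to -0.45 for bin 3 in shPnky and 14.8 to 16.2 percentage points for the share. Against each other, the knockdowns differed by 1.16 to 1.32 over all alternatives. With all libraries, the adjusted p ran from 1.76e-203 (DESeq2 Wald test) to 0.000187 (edgeR with a replicate block). Bin 3 was called from these same counts, in opposite directions against shared controls. These fits are therefore not independent of how it was chosen. With a replicate block the values were 0.69, -0.53 and -0.48 against shCtrl and 1.21 between knockdowns. Same-numbered libraries did not deviate together (correlation over bins 0.08 for shPtbp1 and 0.002 for shPnky), so the numbers were not taken as pairs. At an adjusted p under 0.001, 7 of the 8 Rtn4 bins remained, without the unsuffixed bin. Shares over bins listed in both tables, the shPnky share, the shPnky change of other bins and the usage test between knockdowns could not be computed, as bin 3 is the only Rtn4 bin shared. With 2 libraries per group, the spread is known poorly.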
